A study of Mus musculus with 18 samples.

Results

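Mouse gastruloids were compared one day after a pulse of Wnt activation that came either early or at the usual time. Gastruloids are aggregates of embryonic stem cells that lose their pluripotent state in culture, form germ layers and lay down a body axis. For the pulse CHIR was used, which blocks the kinase GSK3, stabilises β-catenin and so switches on Wnt target genes. The early group, Early 72 h, received CHIR from 24 to 48 h after aggregation and was collected at 72 h. Its counterpart, Control 96 h, received CHIR from 48 to 72 h and was collected at 96 h. Both groups are wild type, of the strain 129/SVEV, and both were taken 24 h after their pulse had ended. The 2 groups hold 6 of the 18 libraries of the study, 3 in each, and were chosen by their pulse window and collection time across all genes. Age and pulse window differ together between these groups and cannot be told apart. A library holds polyA RNA of gastruloids pooled in a tube, per the labels' protocols. Whether replicates stem from separate cultures is not said in the labels, and p-values then measure only how these samples spread, which may be technical.

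Some background helps in reading the gene groups. In the mouse embryo, epiblast cells that are exposed to Wnt and Nodal signals at the primitive streak turn on T (brachyury) and leave the epithelium. Their descendants at the tail end form presomitic mesoderm, in which Tbx6 and Msgn1 set the fate and a clock of Notch and Hes genes times the cutting of somites. Wnt3a and the Cdx factors keep the tailbud growing, and Hox genes are opened one after another along their clusters as the axis extends. Otx2, Fgf5 and Dnmt3b belong to the epiblast before this step.

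Total counts were 20041201, 24536538 and 16699284 in Early 72 h replicates 1, 2 and 3, and 24001928, 18045429 and 15446489 in Control 96 h replicates 1, 2 and 3. The series as a whole ran from 14841728 to 24536538. Levels are given below in CPM, counts scaled by the TMM-adjusted library size, in the order of replicates 1, 2 and 3, and "early libraries" and "control libraries" stand for these 2 groups unless an age is named. Differences are log2 fold changes ± SE of Early 72 h over Control 96 h, so that a negative value means a lower level in the early libraries. The adjusted p is that of edgeR's quasi-likelihood test with Benjamini-Hochberg adjustment over all 16041 genes tested, of 55385 counted. A call needed an adjusted p under 0.05. CPM is not scaled by gene length, so levels are compared between groups and not between genes. Because the RNA comes from whole gastruloids, fewer cells of a type and less RNA per cell cannot be told apart. Control replicate 3 stood apart from the other controls. In a chi-square of its counts against those of control replicates 1 and 2, the statistic divided by its degrees of freedom was 28.1 and 24.6, whereas replicates 1 and 2 gave 2.56 with each other and pairs of early libraries 1.41 to 3.32. Replicate 3 of the controls of 72 and 48 h stood apart in the same way, with 19.1 and 16.2 at 72 h, where replicates 1 and 2 gave 4.80, and 15.6 and 15.4 at 48 h, where they gave 1.94. Counts of list members that moved without control replicate 3 of 96 h are given beside the list.

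The groups differed across most of the transcriptome. Of the 16041 genes, 11184 were called, which is 69.7% of those tested. Higher in the early libraries were 5506 genes (34.3%), and lower were 5678 (35.4%). Changes of at least 2-fold made up 4455 of the calls (27.8% of tested genes), 2328 of them higher (14.5%) and 2127 lower (13.3%). Without control replicate 3 the calls were 5661 higher and 5776 lower. Libraries of the 2 groups did not overlap at 11619 genes (72.4%). The early libraries were all higher at 5762 of them (35.9% of tested genes) and all lower at 5857 (36.5%). The median log2 fold change over all tested genes was -0.01, and 10% of genes lay below -1.26 and 10% above 1.60. These shares are the background against which the counts of each gene group below are to be read. Some genes stand in several lists, for example Tdgf1 in the Nodal and general pluripotency lists, so counts of different lists are not independent. Most genes named below were chosen for a low adjusted p or a large change. That choice favours groups that do not overlap, so the separation of a named gene is no further result.

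**Figure D1:**
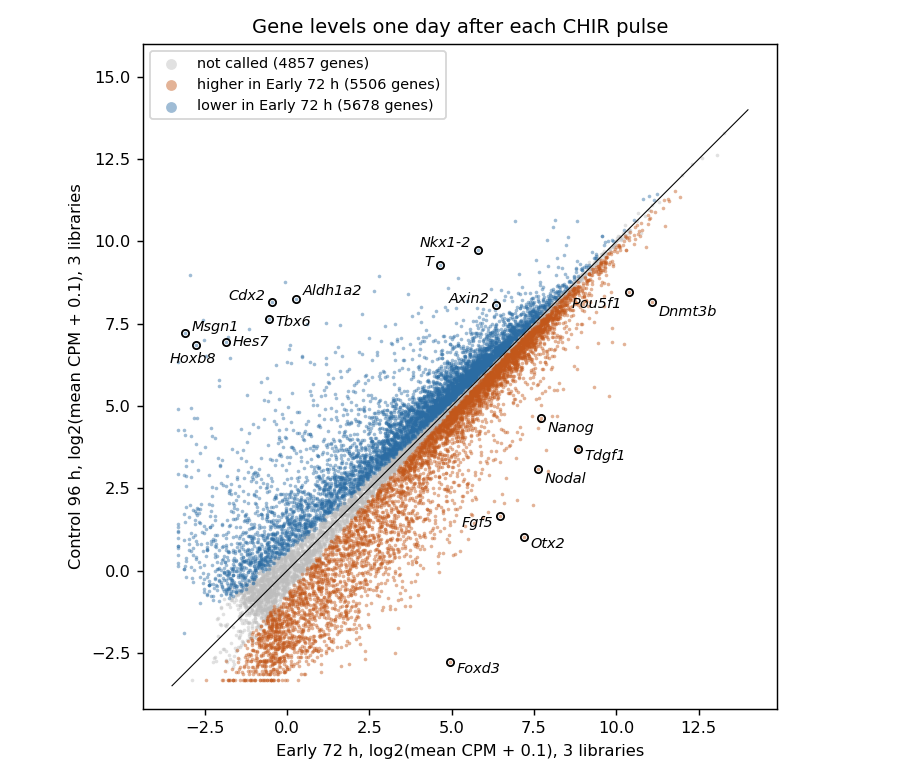
Mean level of each tested gene in Early 72 h (horizontal) and Control 96 h (vertical), both as log2(mean CPM + 0.1) over 3 libraries, with genes called higher in orange, lower in blue and not called in grey, and the diagonal marking equal levels. Otx2, Tdgf1, Nodal and Fgf5 lie far to the right of the diagonal, Tbx6, Msgn1, Hes7, Cdx2 and Aldh1a2 far above it, and most of the 11184 called genes close to it.

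Presomitic mesoderm genes were at low levels in the early libraries, with group means from 0.0165 CPM for Msgn1 to 6.49 CPM for Dll3, and most were far higher in the controls. Mesp1 averaged 0.0864 CPM in the early libraries and 1.69 CPM in the controls, so that it was low in both. Of 10 tested members, 9 were lower and 0 higher, with a median log2 fold change of -5.54, beside 35.4% of all tested genes lower. Tbx6, the T-box factor that commits cells to paraxial mesoderm (mm10 chromosome 7, 126781483 to 126785560, plus strand), was at 0.546, 0.53 and 0.656 CPM in the early libraries, against 243, 261 and 98.5 CPM in the control libraries. Every control library was far above every early one, although control replicate 3 had less than the other two. The log2 fold change was -8.45 ± 0.38, adjusted p = 1.16e-12. Msgn1, which acts with Tbx6 in the same cells, gave 1 read in the 3 early libraries together and 9293 in the controls. Its ratio was 9675-fold (95% counting interval 1736 to 382200) lower in the early libraries, an interval that covers counting error only, and without early replicate 1, which held the read, it was at least 2168-fold lower, with 3 counts over the group taken as the floor. Rspo3, a secreted amplifier of Wnt signalling made in this tissue, was at 2.53, 1.79 and 2.15 CPM in the early libraries, against 194, 209 and 147 CPM in the control libraries (-6.42 ± 0.2, adjusted p = 9.34e-15). The member that was not called was Mesp2, a bHLH factor of the forming segment border, named here after its values were seen. It was at 1.79, 1.71 and 1.79 CPM in the early libraries, against 1.06, 1.63 and 0.312 CPM in the control libraries (0.78 ± 0.38, adjusted p = 0.0788), and on the log2(FPKM + 1) scale it was called higher.

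Summed over the presomitic list, levels were 18.8, 17.8 and 18.5 CPM in the early libraries, against 1233, 1315 and 605 CPM in the control libraries. Control replicate 3 held less than the other controls and far more than any early library. It was below both other controls at 8 of the 9 presomitic members with at least 1 CPM in the controls.

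The Notch pathway and segmentation clock, which drive periodic gene expression in presomitic mesoderm, were lower as a group. Of 12 tested members 10 were lower and 0 higher, with a median of -2.95, beside 35.4% of all tested genes lower. Without control replicate 3, 9 were lower. Dll3, Hes7 and Lfng were already counted among the lower presomitic members. Hes7, the repressor at the core of the clock (mm10 chromosome 11, 69120404 to 69124055, plus strand), was at 0.149, 0.204 and 0.179 CPM in the early libraries, against 117, 119 and 132 CPM in the control libraries. The 3 control libraries were alike, and the early ones were all under 1 CPM (-9.37 ± 0.27, adjusted p = 3.32e-15). Dll1, the Notch ligand of presomitic mesoderm, was at 12.6, 12 and 13.1 CPM in the early libraries, against 400.0, 411 and 200.2 CPM in the control libraries (-4.75 ± 0.25, adjusted p = 7.00e-12). Dll3, a divergent ligand that acts within the clock cells, was at 6.05, 6.8 and 6.61 CPM in the early libraries, against 122, 109 and 65.6 CPM in the control libraries (-3.93 ± 0.19). Nrarp, a feedback target of Notch signalling, was at 6.8, 5.83 and 7.69 CPM in the early libraries, against 60.8, 57.9 and 62 CPM in the control libraries (-3.16 ± 0.13). For these 3 genes all early libraries lay below all control libraries, as at 36.5% of all tested genes.

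Somite genes divided. Of 7 tested members, 3 were higher and 4 lower (median -0.58), beside 34.3% and 35.4% of all tested genes. Foxc1, a forkhead factor of paraxial mesoderm, was at 0.694, 0.448 and 0.417 CPM in the early libraries, against 49.3, 48.1 and 12.4 CPM in the control libraries (-6.13 ± 0.47, adjusted p = 1.55e-09). Meox1, a homeobox factor of formed somites, gave 3 reads in the early libraries and 881 in the controls, a ratio 305.7-fold (95% counting interval 104.3 to 1485) lower in the early libraries, and 616.5-fold lower without early replicate 1. Levels of the 3 members that were higher were small. Ripply1, a repressor that ends the Tbx6 programme at somite borders, was at 3.77, 3.59 and 3.04 CPM in the early libraries, against 0.447, 0.434 and 0.561 CPM in the control libraries (2.85 ± 0.22, adjusted p = 1.34e-09). Tcf15, a bHLH factor of somites that is also found in epiblast, was at 6.85, 7.54 and 6.14 CPM in the early libraries, against 2.36, 1.57 and 1.12 CPM in the control libraries (1.98 ± 0.21). Pax1, of the sclerotome, had 26 reads in the early libraries and 3 in the controls, a ratio 8.324-fold (95% counting interval 2.551 to 42.97) higher in the early libraries. That ratio was 5.716-fold without early replicate 1, 4.856-fold without control replicate 1 and 18.19-fold without control replicate 3. The summed levels of the somite list were 20.4, 19.1 and 16.3 CPM in the early libraries, against 91.6, 93.6 and 33.7 CPM in the control libraries.

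All 14 tested genes of the tailbud and of neuromesodermal progenitors, the posterior cells that feed both spinal cord and somites, were lower in the early libraries, with a median of -4.31. T, the brachyury factor (mm10 chromosome 17, 8434423 to 8442496, plus strand), was at 25.5, 21.9 and 26.9 CPM in the early libraries, against 747, 653 and 473 CPM in the control libraries (-4.66 ± 0.18, adjusted p = 1.30e-13). The early libraries thus kept T at 21.9 CPM or more, whereas Tbx6 was at 0.656 CPM or less there. At both genes they lay below every control. Cdx2, a caudal homeobox factor that opens the posterior Hox genes, was at 0.546, 0.937 and 0.417 CPM in the early libraries, against 248, 237 and 364 CPM in the control libraries (-8.72 ± 0.34, adjusted p = 1.36e-13). Wnt3a, the Wnt ligand that maintains the tailbud, was at 0.347, 0.163 and 0.0596 CPM in the early libraries, against 134, 136 and 138 CPM in the control libraries (-9.4 ± 0.24, adjusted p = 1.18e-15, and -10.06 without early replicate 1). The control values for Wnt3a agree closely, and the early ones rest on a handful of reads. Nkx1-2, a homeobox gene of the caudal epiblast, was at 54.5, 57.4 and 53.5 CPM in the early libraries, against 832, 782 and 949 CPM in the control libraries (-3.95 ± 0.18, adjusted p = 8.92e-13). Evx1, a homeobox factor of the posterior streak, was at 3.72, 2.61 and 2.15 CPM in the early libraries, against 98.2, 83.2 and 147 CPM in the control libraries (-5.26 ± 0.32). For both genes control replicate 3 was the highest library. Cdx4, another caudal factor, was at 0.0992, 0.0815 and 0.238 CPM in the early libraries, against 17.8, 21 and 126 CPM in the control libraries (-8.64 ± 0.9, and -7.14 without control replicate 3). Grsf1, an RNA-binding protein, was at 124, 119.9 and 123 CPM in the early libraries, against 1556, 1595 and 1553 CPM in the control libraries (-3.68 ± 0.14) and Greb1, an estrogen-regulated gene active in the tailbud, at 14.7, 15 and 17 CPM in the early libraries, against 192, 216 and 278 CPM in the control libraries (-3.88 ± 0.14). Summed over this list, levels were 268, 260.2 and 268 CPM in the early libraries, against 4512, 4397 and 4681 CPM in the control libraries, and the third control library was above both others at 11 of 14 members.

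Genes of the primitive streak were mixed, 7 of 13 lower and 3 higher (median -1.35), or 4 higher without control replicate 3. The lower ones included Tbx6, Mesp1, Evx1 and Fgf8, which were already counted in the presomitic or tailbud lists. The 3 higher members were Nodal, Eomes and Wnt3, which act in the epiblast and at the onset of the streak. Eomes, a T-box factor needed for mesendoderm, was at 43, 44.4 and 38.5 CPM in the early libraries, against 3.86, 2.88 and 0.624 CPM in the control libraries (3.99 ± 0.5, adjusted p = 1.11e-06). Wnt3, the ligand that starts the streak, was at 16.8, 18 and 16.4 CPM in the early libraries, against 6.26, 5.21 and 2.31 CPM in the control libraries (1.85 ± 0.24, adjusted p = 2.13e-06). In each case no control library reached the lowest early one, as at 35.9% of all tested genes. Mixl1, a homeobox factor of forming mesendoderm, moved the other way, with 1.84, 1.87 and 1.67 CPM in the early libraries, against 44.1, 43.8 and 9.79 CPM in the control libraries (-4.19 ± 0.65, adjusted p = 1.48e-05). Fgf8, whose protein drives cells out of the streak, was at 11.3, 10.4 and 11.5 CPM in the early libraries, against 63.1, 50.8 and 102 CPM in the control libraries (-2.7 ± 0.21). Among 9 definitive endoderm genes 3 were higher and 4 lower, beside 34.3% and 35.4% of all tested genes. The lower ones were Cxcr4 (-4.56 ± 0.21), Sox17 (-2.34 ± 0.35), Foxa1 (-1.57 ± 0.4) and Foxa2 (-1.35 ± 0.36). Foxa2 overlapped between the groups. The higher ones were Trh (2.9 ± 0.2), Hhex (0.49 ± 0.17) and Cldn6. These members, Cldn6 apart, were named here after their values were seen. The claudin gene Cldn6, an epithelial junction component that stands in that list, was at 127, 124 and 125 CPM in the early libraries, against 20.8, 18 and 16.2 CPM in the control libraries (2.76 ± 0.09).

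**Figure D2:**
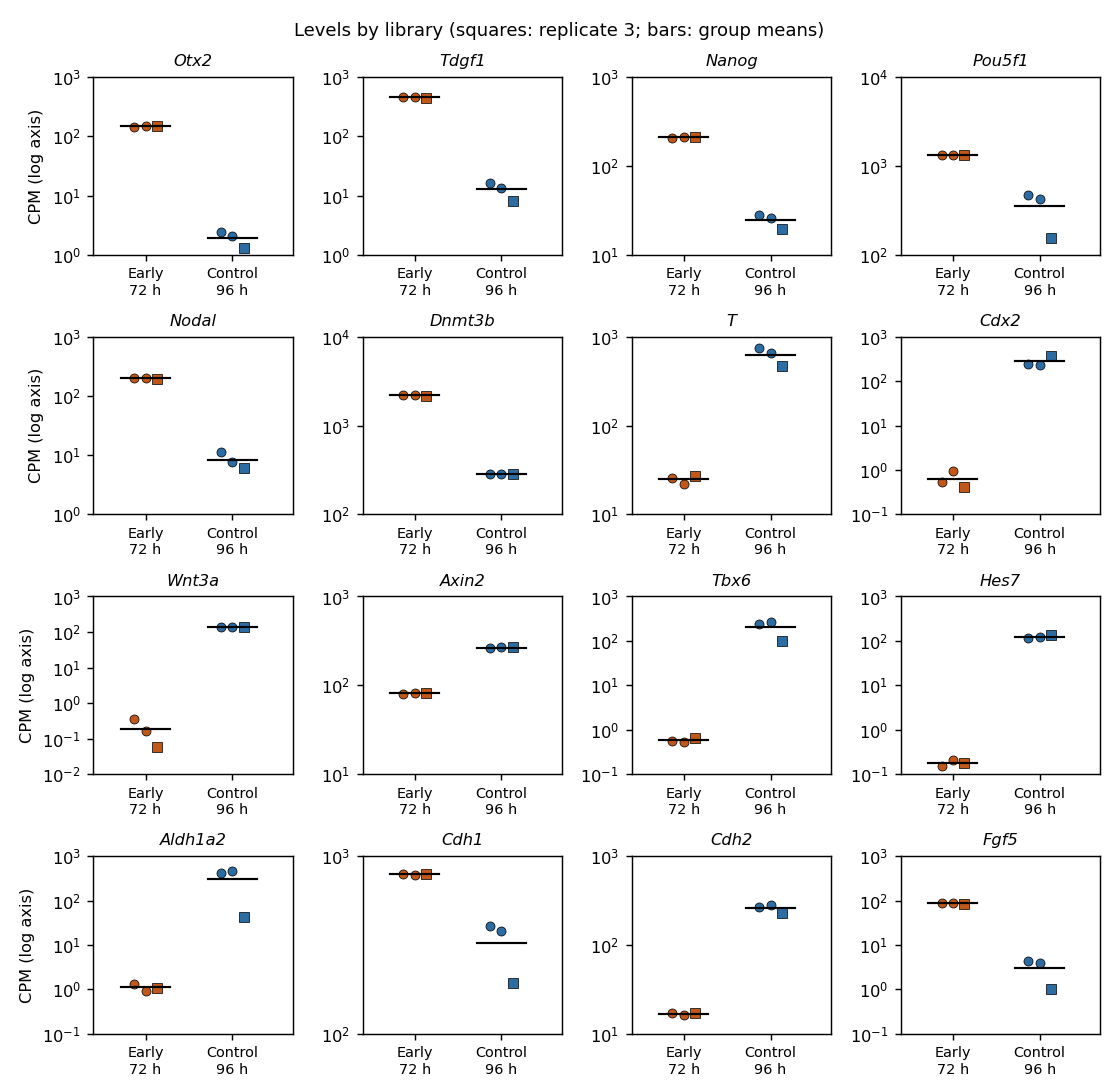
CPM on a log axis for 16 genes, 1 point per library, Early 72 h in orange on the left and Control 96 h in blue on the right of each panel, squares marking replicate 3 and bars the group means. In all 16 panels the 3 early libraries lie on one side of the 3 control libraries, as for 72.4% of all tested genes. For Pou5f1, Tbx6, Aldh1a2 and Cdh1 the control square lies well below the control circles.

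Hox genes, which give cells their position along the axis, were lower throughout groups 1 to 9. In paralogue groups 1 to 4, the anterior members, 12 of 12 tested genes were lower, with a median log2 fold change of -6.36. In groups 5 to 9, which pattern the trunk, 12 of 12 were lower, with a median of -8.04, or -7.91 with the gene that had no reads in the early libraries set at its bound. The count for groups 5 to 9 holds for the deposited counts. On the FPKM scale Hoxa7, named here after its values were seen, was called higher in the early libraries, because the authors' FPKM table lists it at 0 in the 3 control libraries and at 0.500, 0.596 and 0.414 in the early ones, whereas the counts gave 1.29, 1.51 and 1.07 CPM in the early libraries against 5.53, 5.21 and 37.2 CPM in the controls. Hoxb1, the first gene of the HoxB cluster and a retinoic acid target, was at 5.85, 5.13 and 7.27 CPM in the early libraries, against 399, 404 and 279 CPM in the control libraries (-5.91 ± 0.61, adjusted p = 9.69e-08). Hoxb4 was at 0.248, 0.163 and 0 CPM in the early libraries, against 41.9, 47.8 and 55.9 CPM in the control libraries (-8.31 ± 0.45, adjusted p = 1.18e-11), and Hoxb3 at 0.198, 0.163 and 0.238 CPM in the early libraries, against 66.8, 68.9 and 128 CPM in the control libraries (-8.76 ± 0.55). All early libraries lay far below all controls for these 3 genes, beside 36.5% of all tested genes with all early libraries lower. Hoxb1 was the one with several CPM left in the early libraries.

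Farther along the clusters the control libraries themselves disagreed. Hoxb9 was at 0.347, 0.407 and 0.298 CPM in the early libraries, against 41.3, 46 and 395 CPM in the control libraries (-8.78 ± 0.98, adjusted p = 2.42e-07, and -6.90 without control replicate 3). Hoxc8 gave 2 reads in the early libraries and was at 1.54, 1.79 and 88.9 CPM in the control libraries, a ratio 778.7-fold (95% counting interval 215.2 to 6436) lower in the early libraries that became 50.74-fold without control replicate 3, 1301-fold without control replicate 1 and, at the bound, at least 348.9-fold without early replicate 1. Hoxb8 gave 3 reads in the early libraries against 6133 in the controls, where it was at 56.2, 58.5 and 229 CPM. The ratio was 2128-fold (95% counting interval 727.9 to 10320) lower in the early libraries, 1172-fold without control replicate 3 and 3836-fold without early replicate 2. Hoxb6 gave 0 reads in the early libraries and 1044 in the controls, and was at least 362.3-fold lower, or at least 206.3-fold without control replicate 3. For bounds such as this, leaving out an early library lowers the value with the reads counted, to 217.7 without early replicate 2. Hoxd3, a group 3 gene, likewise gave 0 reads against 454 and was at least 157.6-fold lower, or 94.66 without early replicate 2. Control replicate 3 was above both other controls at 10 of 12 genes of groups 5 to 9 and at 7 of 12 of groups 1 to 4. Summed over groups 5 to 9, levels were 2.68, 3.14 and 2.26 CPM in the early libraries, against 197, 205 and 913 CPM in the control libraries. Summed over groups 1 to 4 they were 21.2, 23.5 and 27.6 CPM in the early libraries, against 951, 947 and 859 CPM in the control libraries. Of groups 10 to 13, 2 genes were tested at levels of about 1 CPM, and 1 was called, higher in the early libraries. A pair of Hox antisense transcripts was also lower. Hoxb5os gave 0 reads in the early libraries and 1530 in the controls, at least 531-fold lower, or 190.6 without control replicate 3 and 319 without early replicate 2. Hoxaas3 was at 0.0992, 0.0815 and 0.0596 CPM in the early libraries, against 40.6, 41.9 and 193 CPM in the control libraries (-10.02 ± 0.93, and -8.87 without control replicate 3). The strand setting of the authors' counting is not given in the sources used here, so reads of an antisense gene and its partner may not have been told apart.

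**Figure D3:**
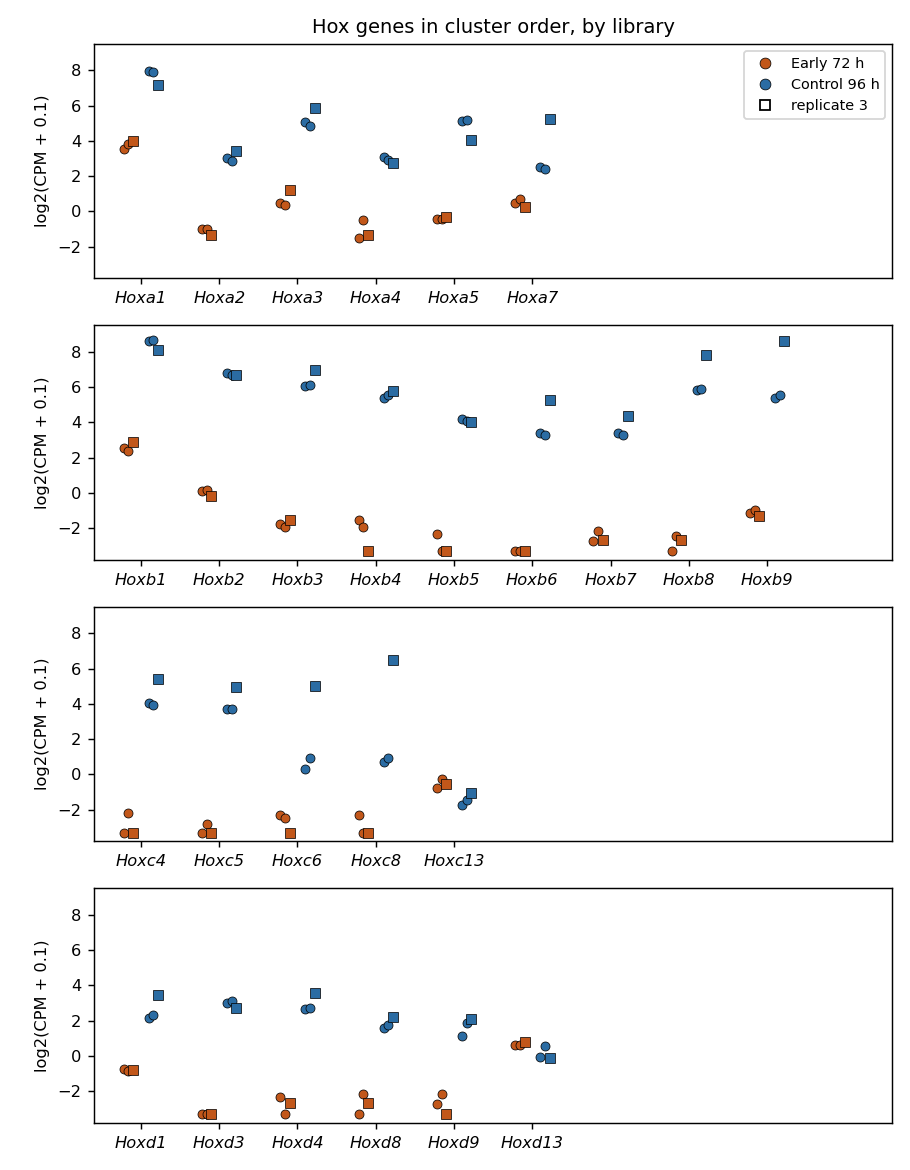
Levels of the tested Hox genes as log2(CPM + 0.1), 1 point per library, clusters A to D from top to bottom and genes in cluster order from left to right, with Early 72 h in orange on the left and Control 96 h in blue on the right of each gene. Blue points lie above orange points at every gene of groups 1 to 9, a separation found at 36.5% of all tested genes. The blue squares of control replicate 3 stand above the blue circles at most genes from group 6 on.

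Wnt target and feedback genes, which the pathway induces, were lower in the early libraries. Both groups had been out of CHIR for the same time, but they differed in age and pulse window. Activity of the pathway was not measured apart from these RNA levels. Cdx1 of the tailbud list is also a member. Of 16 tested members 13 were lower and 0 higher, with a median of -1.69. Axin2, a scaffold of the β-catenin destruction complex and a direct target (mm10 chromosome 11, 108920349 to 108950783, plus strand), was at 79.4, 82.1 and 81.6 CPM in the early libraries, against 259.7, 267 and 270.1 CPM in the control libraries (-1.71 ± 0.06, adjusted p = 4.60e-14). The spread within each group was small beside this change of 3.28-fold. Sp5, a direct target that represses further Wnt responses, was at 4.76, 4.24 and 4.35 CPM in the early libraries, against 106, 95.7 and 94 CPM in the control libraries (-4.47 ± 0.17, adjusted p = 7.13e-13). Nkd1, a cytoplasmic feedback inhibitor, was at 9.47, 9.49 and 9.65 CPM in the early libraries, against 87.2, 85.3 and 82.1 CPM in the control libraries (-3.15 ± 0.1, adjusted p = 1.52e-14), and Tnfrsf19, a receptor of the TNF family induced by Wnt, at 55.5, 53.5 and 52.4 CPM in the early libraries, against 237, 245 and 272 CPM in the control libraries (-2.22 ± 0.08). Lef1, a DNA-binding partner of β-catenin, was at 109, 107 and 103 CPM in the early libraries, against 258, 255 and 184 CPM in the control libraries (-1.13 ± 0.1). None of these genes overlapped between the groups, as was so for 72.4% of all tested genes. Summed over the list, levels were 489.6, 486 and 488 CPM in the early libraries, against 1839, 1836 and 1690.5 CPM in the control libraries.

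Promoter sequences are shown for Hes7 and Axin2, called members of the presomitic and Wnt feedback lists of low adjusted p that the RefSeq promoter table holds. Nkd1, lower in adjusted p than Axin2, is not shown because its window lies 6279 bases from the start of the gene in GENCODE M21. The table gave windows for 17 of the 22 called members of the presomitic and Wnt feedback lists, each running from 250 bases before the start of transcription to 50 after it. The Hes7 window lies at chr11:69120203-69120502 on the plus strand and that of Axin2 at chr11:108920099-108920398 on the plus strand, both in GRCm38.p6. Capitals mark matches to CACNAG, the N box bound by Hes repressors, on either strand.
Hes7: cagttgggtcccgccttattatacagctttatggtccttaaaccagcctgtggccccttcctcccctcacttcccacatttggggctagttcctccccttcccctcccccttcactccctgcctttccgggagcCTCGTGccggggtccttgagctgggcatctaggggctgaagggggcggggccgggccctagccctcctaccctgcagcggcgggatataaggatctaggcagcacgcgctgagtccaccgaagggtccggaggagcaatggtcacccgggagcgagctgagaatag
Axin2: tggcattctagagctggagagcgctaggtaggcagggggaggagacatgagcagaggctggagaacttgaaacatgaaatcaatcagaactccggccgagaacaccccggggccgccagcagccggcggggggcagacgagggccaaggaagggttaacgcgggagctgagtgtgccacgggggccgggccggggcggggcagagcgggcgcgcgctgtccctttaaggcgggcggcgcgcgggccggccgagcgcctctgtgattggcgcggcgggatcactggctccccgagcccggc
The Hes7 window held 1 match to CACNAG, on the minus strand, and the Axin2 window held 0. A match to CACNAG stood in 42.5% of all 32851 windows in the table. Neither window held CTTTGA, the core of the site bound by TCF and LEF factors, on either strand, and 16% of all windows did. The motifs share no overlapping match here, and a match is a description of the letters in the window.

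Among the Wnt ligands 6 of 9 were lower and 1 higher (median -3.11), the higher one being Wnt3. Wnt5a, a ligand that guides elongation of the axis, was at 2.38, 2.61 and 2.86 CPM in the early libraries, against 118, 118 and 62 CPM in the control libraries (-5.25 ± 0.26, adjusted p = 4.80e-12). Wnt5b, its close relative, was at 15.2, 16 and 15.3 CPM in the early libraries, against 122, 118 and 161 CPM in the control libraries (-3.11 ± 0.1), and Wnt6 at 0.496, 0.163 and 0.179 CPM in the early libraries, against 18.9, 16.5 and 23.4 CPM in the control libraries (-6.11 ± 0.32, and -6.79 without early replicate 1). Receptors and effectors divided almost evenly, 6 higher and 8 lower of 14, beside 34.3% higher and 35.4% lower of all tested genes. Fzd10, a frizzled receptor of the posterior axis, was at 30.5, 28.1 and 29 CPM in the early libraries, against 357, 356 and 429.8 CPM in the control libraries (-3.7 ± 0.16, adjusted p = 5.29e-13). Fzd1 and Fzd3, other frizzled receptors, were lower too (-2.49 ± 0.14 and -1.44 ± 0.1). Tcf7l1, the TCF factor that represses targets in the absence of Wnt, was higher, at 134, 127 and 139 CPM in the early libraries, against 26.2, 22.3 and 13.2 CPM in the control libraries (2.67 ± 0.15, adjusted p = 3.43e-11).

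Retinoic acid genes were mostly lower in the early libraries. The vitamin A derivative retinoic acid is made in somites and presomitic mesoderm and opposes Wnt and FGF signals at the tail. Of 10 tested members 8 were lower and 0 higher, with a median of -3.46, and 1 was higher without control replicate 3. Aldh1a2, the enzyme that makes it in the embryo, was at 1.34, 0.937 and 1.07 CPM in the early libraries, against 413, 455 and 41.8 CPM in the control libraries (-8.09 ± 0.73, adjusted p = 1.53e-08). Control replicate 3 had much less Aldh1a2 than the other controls and lay above all early libraries. Cyp26a1, the enzyme of the tailbud that degrades retinoic acid, was at 1.49, 2.08 and 2.09 CPM in the early libraries, against 17.6, 18.4 and 25.4 CPM in the control libraries (-3.43 ± 0.24, adjusted p = 4.39e-10). The binding proteins Crabp2 and Crabp1 were at 15.9, 18 and 16 and at 6.8, 6.88 and 7.45 CPM in the early libraries, against 165, 167 and 227 and 92.1, 95.9 and 191 CPM in the controls (-3.48 ± 0.13 and -4.16 ± 0.23). The synthesis enzyme Aldh1a2 and the breakdown enzyme Cyp26a1 were thus both at lower levels in the early libraries. Their relatives Aldh1a3, Cyp26b1 and Cyp26c1 were not among the tested genes.

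Among FGF ligands and genes of ERK feedback 5 were higher and 7 lower of 15 (9 lower without control replicate 3). Of all tested genes 34.3% were higher and 35.4% lower. Fgf3, a ligand of the posterior axis, was at 1.64, 1.3 and 1.91 CPM in the early libraries, against 54.2, 56 and 40.7 CPM in the control libraries (-4.98 ± 0.19, adjusted p = 8.58e-14), whereas Fgf5, the ligand of the primed epiblast, was at 89.3, 89.7 and 83.8 CPM in the early libraries, against 4.27, 3.91 and 0.998 CPM in the control libraries (4.76 ± 0.33, adjusted p = 4.32e-10). Within the ETS factors induced by FGF, Etv5 was at 567, 569 and 583 CPM in the early libraries, against 201, 202 and 203 CPM in the control libraries (1.5 ± 0.04, adjusted p = 4.40e-16) and Etv4 at 64.7, 66.2 and 66.9 CPM in the early libraries, against 175, 179 and 305 CPM in the control libraries (-1.73 ± 0.15). The same division ran through the Sprouty inhibitors, with Spry1 higher (1.51 ± 0.1) and Spry4 lower (-1.47 ± 0.08). BMP ligands, targets and antagonists were lower in 8 of 13 cases and higher in 0 (median -0.9). Id1, a direct BMP target that blocks bHLH factors, was at 1.24, 1.22 and 1.73 CPM in the early libraries, against 20.1, 14.7 and 30.8 CPM in the control libraries (-3.98 ± 0.26, adjusted p = 1.95e-10), Bmp7 at 5.46, 4.73 and 4.65 CPM in the early libraries, against 29.4, 28.3 and 28.9 CPM in the control libraries (-2.54 ± 0.11) and Id3 at 24.8, 23.5 and 26.4 CPM in the early libraries, against 51.7, 42.2 and 57.2 CPM in the control libraries (-1.02 ± 0.12). Smad6, an inhibitor of BMP signalling, was lower by a small amount (-0.9 ± 0.14).

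The Nodal pathway stood on the other side. Nodal is a TGF-β ligand of the epiblast, signals through activin receptors and the co-receptor Tdgf1, and induces mesendoderm. Of 10 tested members 8 were higher and 2 lower, with a median of 2.99. Nodal itself was at 198, 202 and 196 CPM in the early libraries, against 11.1, 7.82 and 6.17 CPM in the control libraries (4.53 ± 0.23, adjusted p = 6.16e-12), 23-fold higher in the early libraries. Tdgf1 was at 461, 463 and 439 CPM in the early libraries, against 16.5, 13.5 and 8.17 CPM in the control libraries (5.12 ± 0.29, adjusted p = 2.26e-11), and Gdf3, a ligand related to Nodal, at 49.5, 47.2 and 50.6 CPM in the early libraries, against 2.68, 2.55 and 4.18 CPM in the control libraries (4.0 ± 0.16, adjusted p = 2.27e-13). Smad7, an inhibitor induced by the pathway, was at 49.6, 48.1 and 50.5 CPM in the early libraries, against 4.55, 4.07 and 4.3 CPM in the control libraries (3.51 ± 0.1, adjusted p = 2.52e-15). Control levels of all 4 genes were low, and no control library came near an early one. All early libraries lay above all controls at 35.9% of all tested genes. The 2 lower members were the receptors Acvr2b (-0.86 ± 0.09) and Acvr1b (-0.42 ± 0.1), both by less than 2-fold. A near-identical transcribed copy, Tdgf1-ps1, was also among the largest differences (4.98 ± 0.31), and the counting may have divided reads between it and Tdgf1.

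Genes of the pluripotent state were higher in the early libraries. In the general pluripotency list 7 of 10 tested members were higher and 2 lower (median 2.44). Pou5f1, the factor Oct4, was at 1324, 1337 and 1334 CPM in the early libraries, against 474, 425 and 154 CPM in the control libraries (1.92 ± 0.23, adjusted p = 7.24e-07). Nanog, which holds the ground state and is also active in the posterior epiblast, was at 207, 211 and 210.4 CPM in the early libraries, against 28.2, 26.1 and 19.3 CPM in the control libraries (3.08 ± 0.13, adjusted p = 3.33e-13). Sox2, shared by pluripotent and neural cells, was at 144, 148 and 153 CPM in the early libraries, against 74.7, 63.9 and 131 CPM in the control libraries (0.73 ± 0.23, adjusted p = 0.00868), and was not called without control replicate 2 (0.54, adjusted p = 0.0523). Utf1, a chromatin factor of pluripotent cells, was at 237, 239.6 and 246 CPM in the early libraries, against 9.96, 7.06 and 7.11 CPM in the control libraries (4.88 ± 0.18), and Dppa4 at 106, 105 and 109 CPM in the early libraries, against 16, 12.7 and 12.2 CPM in the control libraries (2.95 ± 0.13). The members that were lower were Lin28a, an RNA-binding repressor of let-7 (-0.6 ± 0.06), and its relative Lin28b (-0.38 ± 0.14, adjusted p = 0.0238). Lin28b was at 113, 114 and 109 CPM in the early libraries, against 114, 123 and 202 CPM in the control libraries, and it was not called without control replicate 3 (-0.08, adjusted p = 0.366), without early replicate 3 (adjusted p = 0.0675) or with only the groups compared (adjusted p = 0.137).

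Naive pluripotency genes, which mark the state of cultured embryonic stem cells and the early blastocyst epiblast, were higher in 11 of 15 cases with 1 lower (median 2.23). Esrrb, an orphan nuclear receptor of that state, was at 57.2, 63.7 and 59.9 CPM in the early libraries, against 8.01, 8.31 and 8.73 CPM in the control libraries (2.86 ± 0.13, adjusted p = 9.27e-13). Zfp42, the zinc finger factor Rex1, was at 57.8, 58.9 and 57 CPM in the early libraries, against 10.2, 10.5 and 8.61 CPM in the control libraries (2.56 ± 0.09, adjusted p = 3.16e-14), Klf2 at 41.6, 43.4 and 46.4 CPM in the early libraries, against 5.53, 4.89 and 4.93 CPM in the control libraries (3.09 ± 0.2) and Dppa5a at 629.9, 664 and 637 CPM in the early libraries, against 49.1, 44.6 and 49.4 CPM in the control libraries (3.75 ± 0.11, adjusted p = 2.69e-15). The 3 libraries of each group agreed closely for these genes. Klf5 was the lower member, with 18.4, 18.4 and 19.4 CPM in the early libraries, against 56, 55.5 and 19 CPM in the control libraries (-1.23 ± 0.25, adjusted p = 2.26e-04). Here control replicate 3 lay within the range of the early libraries, and the groups overlapped.

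Formative and primed epiblast genes were higher in 10 of 15 cases and lower in 4 (median 1.75). Otx2, a homeobox factor of the epiblast and later of the head (mm10 chromosome 14, 48657677 to 48673819, minus strand), was at 142, 148 and 149.8 CPM in the early libraries, against 2.4, 2.06 and 1.31 CPM in the control libraries. This difference of 73.6-fold (6.2 ± 0.23, adjusted p = 7.58e-14) was one of the 10 largest in that direction among named genes with at least 10 CPM in a group. Foxd3, a forkhead factor needed to keep the epiblast, was at 30.3, 29.1 and 32.1 CPM in the early libraries, and gave 1863 reads there against 3 in the controls. That is a ratio 596.5-fold (95% counting interval 203.8 to 2895) higher, and 1044-fold without control replicate 1. Pou3f1, the factor Oct6 of the primed epiblast, was at 91.2, 94.9 and 91.6 CPM in the early libraries, against 4.1, 4.4 and 6.24 CPM in the control libraries (4.26 ± 0.12, adjusted p = 2.10e-15), and Slc7a3, a transporter of cationic amino acids, at 202, 189 and 195 CPM in the early libraries, against 22.7, 21.8 and 15.8 CPM in the control libraries (3.27 ± 0.09). The lower members were Sox4 (-1.67 ± 0.1), Etv4, Lef1 and Fst, which are also active in mesoderm. Fst, the activin antagonist follistatin, was at 119.6, 111 and 108 CPM in the early libraries, against 377, 343 and 159.8 CPM in the control libraries (-1.38 ± 0.2).

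DNA methylation enzymes were higher in 6 of 10 cases and lower in 2 (median 0.92), with 7 higher without control replicate 3. Dnmt3b, a de novo methyltransferase that marks the epiblast, was at 2213, 2199 and 2169 CPM in the early libraries, against 285, 285 and 284 CPM in the control libraries (2.95 ± 0.07, adjusted p = 6.11e-16). Dnmt3l, a cofactor without catalytic activity, was at 56.2, 63.6 and 64.3 CPM in the early libraries, against 2.8, 2.61 and 3.49 CPM in the control libraries (4.38 ± 0.15, adjusted p = 2.74e-14), and Dnmt3a at 619, 653 and 634 CPM in the early libraries, against 208, 215 and 142 CPM in the control libraries (1.75 ± 0.1). Tet1, which oxidises 5-methylcytosine, was higher (1.63 ± 0.14, adjusted p = 5.18e-09), whereas Tet3, with the same activity, was lower, at 36.4, 33.4 and 33.8 CPM in the early libraries, against 116, 126 and 102 CPM in the control libraries (-1.73 ± 0.12, adjusted p = 2.65e-10). Dnmt1, the maintenance enzyme, differed little (-0.23 ± 0.04). The groups did not overlap at any of these 6 genes, as at 72.4% of all tested genes. Imprinted genes were mostly lower, 8 of 14, with 2 higher, or 3 without control replicate 3. H19, a non-coding RNA expressed from the maternal allele, was at 3.52, 3.38 and 3.64 CPM in the early libraries, against 29.2, 38.9 and 45.7 CPM in the control libraries (-3.43 ± 0.21, adjusted p = 5.42e-11), and its neighbour Igf2, a growth factor, at 0.0992, 0.204 and 0.0596 CPM in the early libraries, against 11.1, 9.67 and 28.1 CPM in the control libraries (-6.89 ± 0.53, with -6.25 without control replicate 3 and -7.52 without early replicate 2). Peg10 was lower as well (-1.61 ± 0.09), and Snrpn was higher, at 128, 128 and 133 CPM in the early libraries, against 48.7, 43.7 and 37.4 CPM in the control libraries (1.58 ± 0.08).

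Adhesion genes showed opposite shifts in the epithelial and mesenchymal lists. Of 12 tested epithelial genes 9 were higher and 2 lower, with a median of 1.19, and 3 were lower without control replicate 3. Of 11 mesenchymal genes 11 were lower and 0 higher, with a median of -2.12. Cdh1, E-cadherin, was at 793, 782 and 794 CPM in the early libraries, against 403, 380.2 and 194 CPM in the control libraries (1.28 ± 0.16, adjusted p = 1.26e-06). Cdh2, the N-cadherin of mesoderm and neural tissue, was at 17.2, 16.1 and 17 CPM in the early libraries, against 268, 279 and 228 CPM in the control libraries (-3.95 ± 0.12, adjusted p = 6.81e-15). The junction genes Epcam and Cldn7 were higher (1.48 ± 0.1 and 2.82 ± 0.14). Zeb1, a repressor of Cdh1, was at 2.58, 2.53 and 2.92 CPM in the early libraries, against 27, 30.7 and 28.4 CPM in the control libraries (-3.43 ± 0.15, adjusted p = 6.40e-13), and Pdgfra, a receptor of paraxial mesoderm, at 1.39, 1.63 and 1.91 CPM in the early libraries, against 94.7, 101 and 34.5 CPM in the control libraries (-5.56 ± 0.34). The lower epithelial members were the desmosomal gene Dsp (17.1, 18.1 and 17 CPM in the early libraries, against 140.4, 144 and 123 CPM in the control libraries, -2.96 ± 0.1) and the keratin gene Krt8 (14.4, 16.3 and 14.2 CPM in the early libraries, against 46.9, 37.9 and 18.6 CPM in the control libraries, -1.21 ± 0.2). Control replicate 3 was below both other controls at 10 of 12 epithelial and 9 of 11 mesenchymal members with at least 1 CPM in the controls. Summed over the mesenchymal list, levels were 558, 578 and 567 CPM in the early libraries, against 2697, 2934 and 1259.7 CPM in the control libraries.

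Of 14 matrix and integrin genes 9 were lower and 4 higher, or 8 lower without control replicate 3. Lama1, the laminin chain of the embryonic basement membrane, was at 12.9, 13.2 and 13.2 CPM in the early libraries, against 131, 150.3 and 72.3 CPM in the control libraries (-3.17 ± 0.22, adjusted p = 3.24e-10), while Lama5, another laminin chain, was at 803, 772 and 807 CPM in the early libraries, against 424, 390.4 and 466 CPM in the control libraries (0.9 ± 0.09, adjusted p = 9.97e-08). Both chains of collagen IV were lower (-1.26 ± 0.08 for Col4a1 and -1.4 ± 0.09 for Col4a2), and Col18a1 was higher, at 673, 677 and 667 CPM in the early libraries, against 164, 164 and 368 CPM in the control libraries (1.54 ± 0.2). Guidance genes, the Eph receptors, ephrins, semaphorins, slits and netrins that set cell boundaries, were lower in 14 of 17 cases with 1 higher, or 2 without control replicate 3 (median -1.5). Efna1, an ephrin, was at 1.88, 1.87 and 1.07 CPM in the early libraries, against 35.6, 39.6 and 23.2 CPM in the control libraries (-4.32 ± 0.25, adjusted p = 3.58e-11), and Slit2 at 2.28, 2.4 and 3.64 CPM in the early libraries, against 26.1, 26.1 and 18.9 CPM in the control libraries (-3.12 ± 0.18). The exception was Efnb2, an ephrin with 79.8, 81 and 81.6 CPM in the early libraries, against 29.9, 29.9 and 17.5 CPM in the control libraries (1.63 ± 0.12, adjusted p = 8.23e-10).

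**Figure D4:**
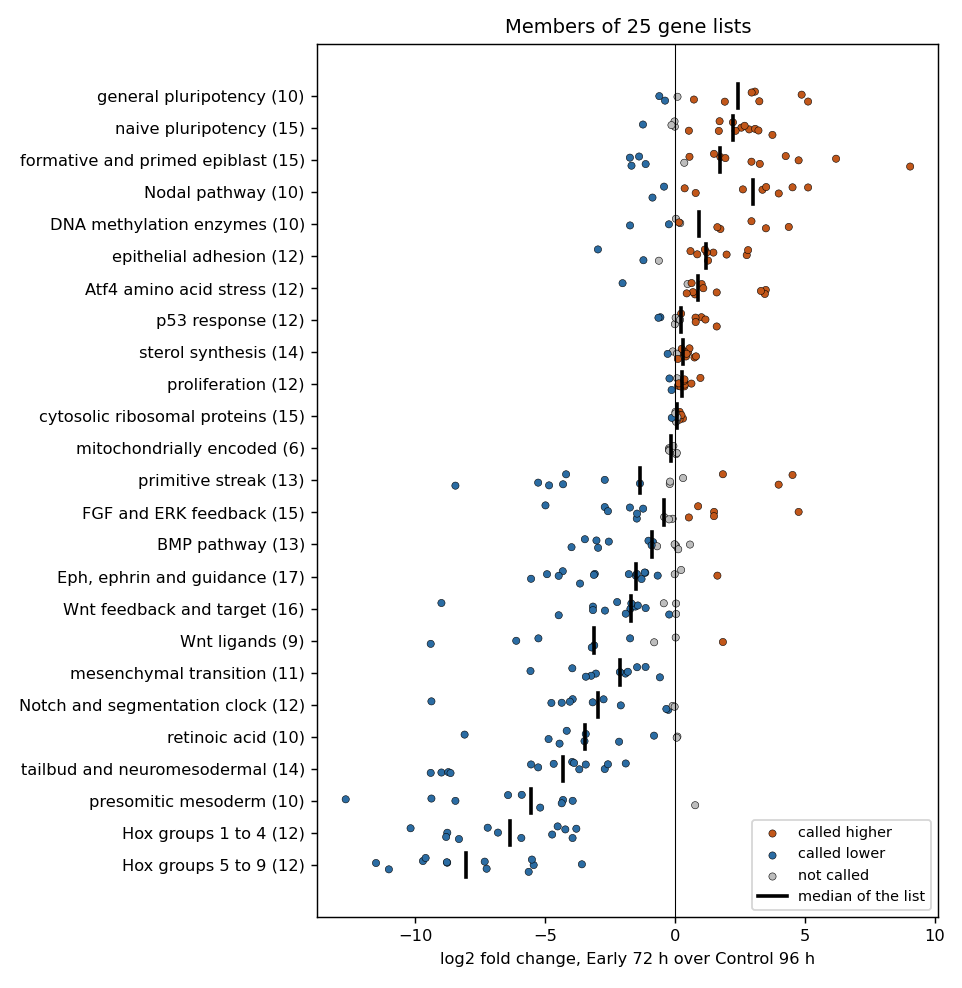
Log2 fold change of Early 72 h over Control 96 h for every tested member of 25 gene lists, 1 point per gene, with genes called higher in orange, lower in blue and not called in grey, a black bar at the median of each list and the number of tested members in brackets. Pluripotency, formative and Nodal genes lie mostly to the right of 0, Hox, presomitic, tailbud, retinoic acid and mesenchymal genes to the left, and sterol, proliferation, ribosomal and mitochondrial genes close to 0.

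Lists of stress and metabolic genes had medians nearer to 0 than the Hox, tailbud and presomitic lists. Single members such as Trib3, Chac1 and Slc2a1 still moved by more than 2-fold. Genes of the amino acid response driven by Atf4 were higher in 10 of 12 cases with 1 lower (median 0.9). Atf4 itself was at 287, 293 and 297 CPM in the early libraries, against 144, 135 and 150.2 CPM in the control libraries (1.03 ± 0.05, adjusted p = 7.46e-12). Trib3, a pseudokinase it induces, was at 32.9, 30.5 and 29.7 CPM in the early libraries, against 2.97, 3.2 and 1.93 CPM in the control libraries (3.5 ± 0.16, adjusted p = 1.05e-12), and Chac1, which breaks down glutathione, at 25.8, 24.9 and 24.1 CPM in the early libraries, against 2.84, 2.12 and 1.62 CPM in the control libraries (3.46 ± 0.2). Ddit4, an inhibitor of mTORC1, moved the other way, with 90.4, 89.7 and 92.1 CPM in the early libraries, against 407, 384 and 308 CPM in the control libraries (-2.01 ± 0.09, adjusted p = 8.98e-13). Of 12 p53 response genes 6 were higher and 2 lower, with 7 higher without control replicate 3. Mdm2, the ligase that limits p53, was at 173, 172 and 177 CPM in the early libraries, against 86.2, 85.8 and 85.3 CPM in the control libraries (1.02 ± 0.05, adjusted p = 3.95e-12), Trp53inp1 was higher by 1.17 ± 0.05 and Bax, a promoter of apoptosis, by 0.79 ± 0.05, whereas Cdkn1a, the cell cycle inhibitor p21, differed by only 0.24 ± 0.06. Sterol synthesis genes were higher in 11 of 14 cases by a median of 0.31, for example Fdft1, squalene synthase (0.75 ± 0.06). Hypoxia and glycolysis genes were 5 higher and 6 lower of 14, near the 34.3% higher and 35.4% lower of all tested genes. The glucose transporter Slc2a1 was at 270.3, 265 and 266 CPM in the early libraries, against 1204, 1143 and 1813 CPM in the control libraries (-2.38 ± 0.18, adjusted p = 1.31e-09), and Pdk1, a kinase that holds pyruvate out of the mitochondrion, at 311, 317 and 315 CPM in the early libraries, against 139, 129 and 123 CPM in the control libraries (1.27 ± 0.11).

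Housekeeping groups were near 0. Proliferation genes were higher in 9 of 12 cases with 2 lower, by a median of 0.29, or 8 higher without control replicate 3. Ccne1, the cyclin of entry into S phase, was at 175, 171 and 166 CPM in the early libraries, against 84.5, 84.2 and 91.2 CPM in the control libraries (0.98 ± 0.04, adjusted p = 4.20e-13). Cytosolic ribosomal protein genes were higher in 5 and lower in 1 of 15, or 4 higher without control replicate 3, all by under 2-fold, and 1 or 2 were called higher on the FPKM scales. None of 6 mitochondrially encoded genes passed edgeR's test in either direction. At an unadjusted p under 0.05 the count was also 0, as it was by DESeq2 and on the FPKM scales, and with no filter on low counts 3 names of the list were lower. Their summed level was 12777, 8573 and 13094 CPM in the early libraries, against 11504, 12569 and 12378 CPM in the control libraries, early replicate 2 being lower than the rest.

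Markers of cell types outside the expected layers moved both ways. Of 11 endothelium and blood genes 6 were higher and 3 lower. Aplnr, the apelin receptor, which nascent mesoderm also expresses, was at 0.0496, 0.0407 and 0.119 CPM in the early libraries, against 251, 242 and 90.4 CPM in the control libraries (-11.41 ± 0.66, adjusted p = 3.55e-11), and Lmo2 at 2.53, 2.16 and 2.03 CPM in the early libraries, against 75.2, 75.5 and 36.4 CPM in the control libraries (-4.8 ± 0.24). Pecam1, an adhesion molecule of endothelium that embryonic stem cells express too, was at 29.6, 33.1 and 29.1 CPM in the early libraries, against 3.33, 2.71 and 1.5 CPM in the control libraries (3.55 ± 0.23). Extraembryonic endoderm genes were higher in 6 and lower in 1 of 9 (4 higher without control replicate 3), with summed levels of 241, 253 and 261 CPM in the early libraries, against 424, 403 and 231 CPM in the control libraries. Trophoblast genes were higher in 4 and lower in 2 of 6 (1 lower without control replicate 3), summing to 53.4, 54 and 48.6 CPM in the early libraries, against 21.9, 17 and 10.3 CPM in the control libraries. Most of the early sums came from Eomes, the streak gene above, which also stands in this list. It held 43, 44.4 and 38.5 CPM of them, and 3.86, 2.88 and 0.624 CPM of the control sums. The higher sums in the early libraries are thus no sign of more trophoblast RNA. Fibroblast and feeder genes were tested for 5 of 8 names, 2 higher and 2 lower, and summed to 14.6, 13.1 and 13.1 CPM in the early libraries, against 66.3, 68.9 and 40.0 CPM in the control libraries. In that list Pdgfrb was at 1.34, 0.856 and 1.37 CPM in the early libraries, against 29.1, 29.9 and 25.2 CPM in the control libraries (-4.59 ± 0.21), and Dcn, decorin, gave 36 reads in the early libraries and 0 in the controls, at least 11.53-fold higher, or 6.724 without control replicate 1. The part of such cells in the other differences was not tested.

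Neural progenitor genes were 3 higher and 5 lower of 9, Sox2 being among the higher ones. Without control replicate 3 they were 4 higher and 4 lower, and that library was above both other controls at 8 of 9 members, with summed levels of 175, 179 and 185 CPM in the early libraries, against 102, 90.6 and 193 CPM in the control libraries. Cardiac and lateral mesoderm genes were 2 higher and 5 lower of 8 (4 lower without control replicate 3), and their summed levels stayed at 10.7, 11 and 10.5 CPM in the early libraries, against 18.7, 14.9 and 8.85 CPM in the control libraries.

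Several of the largest differences fell outside the lists. By the rule that named the 10 largest changes each way, the higher genes included Platr10, a non-coding RNA linked to pluripotency, at 176, 183 and 171 CPM in the early libraries, against 4.76, 3.69 and 3.3 CPM in the control libraries (5.46 ± 0.09, adjusted p = 4.57e-18), Pla2g10, a secreted phospholipase (5.71 ± 0.22), Slc5a11, a sodium-coupled inositol transporter (5.13 ± 0.24), and Lrrc2 (4.91 ± 0.34). The lower genes included Arg1, arginase, at 0.0992, 0.122 and 0 CPM in the early libraries, against 149, 156 and 79.2 CPM in the control libraries (-10.51 ± 0.45, adjusted p = 5.08e-13), and Sprr2a3, of the small proline-rich family, which gave 0 reads in the early libraries and 5021 in the controls. Sprr2a3 was at least 1742-fold lower, or 1047 without early replicate 2, and since it belongs to a cluster of similar genes its reads may include those of its relatives. The rule named only genes whose libraries did not overlap between the groups. The separation of every gene it named was thus set by selection, which holds for Arg1, Sprr2a3, Foxd3, Otx2, Tdgf1, Utf1, Msgn1, Aplnr and the others.

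The gap one day after the pulse was then set against the gap at the end of the pulse, which is Early 48 h against Control 72 h, in the same fit. A test of the difference between the gaps called 7146 genes, 44.5% of those tested, 3659 higher (22.8%) and 3487 lower (21.7%). Of the 5506 genes called higher one day after, 4234 (76.9%) already had a positive log2 fold change at the end of the pulse, and of the 5678 called lower 4560 (80.3%) had a negative one. Median log2 fold changes were 0.78 one day after and 0.32 at the end for the first set, and -0.74 and -0.40 for the second. These medians describe genes chosen by the later gap and carry no test.

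T had similar log2 fold changes at both times. Its log2 fold change was -4.66 one day after and -4.69 at the end of the pulse, and the difference of 0.03 ± 0.23 was not called (adjusted p = 0.943). Esrrb, with 2.86 one day after and 2.88 at the end, gave a difference of -0.02 ± 0.17 that was not called either (adjusted p = 0.926). A p above the threshold does not show that the gaps were equal. Other genes differed between the 2 times. Aldh1a2 had a log2 fold change of -8.09 one day after and 1.07 at the end, a difference of -9.17 ± 1.65 (adjusted p = 1.99e-04). For Cdx4 the values were -8.64 and -0.08, a difference of -8.56 ± 1.48 (adjusted p = 1.36e-04, or -7.06 leaving out the third control library of 96 h). For Dll1 they were -4.75 and 0.57 (-5.32 ± 0.37). At the end of the pulse Aldh1a2 was higher in all 3 libraries of Early 48 h than in those of Control 72 h, at 2.2 ± 0.252 and 1.06 ± 0.116 CPM (SD, n = 3 each), while the libraries overlapped for Dll1 and Cdx4.

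Pluripotency and epiblast lists divided in this test. Of 15 formative and primed genes the difference was higher for 10 and lower for 3, and of 15 naive genes it was higher for 1 and lower for 8, beside 22.8% and 21.7% of all tested genes. Among genes with a higher difference, Fgf5 had 4.76 one day after and -0.9 at the end of the pulse (5.66 ± 0.42, adjusted p = 6.43e-09). Eomes had 3.99 and -1.37 (5.36 ± 0.62, adjusted p = 1.57e-06). The gap at the end of the pulse carries no test of its own, and there the libraries of both genes overlapped. Eomes was at 33.8, 35.2 and 37.9 CPM at Early 48 h, against 125, 123 and 26.3 CPM at Control 72 h. Fgf5 was at 36.7, 40.8 and 43.5 CPM at Early 48 h, against 92.7, 94.8 and 35.9 CPM at Control 72 h. Control replicate 3 of 72 h was thus below all libraries of Early 48 h at both genes, and without the 3 control libraries numbered 3 the differences were 5.42 for Eomes and 5.64 for Fgf5. Nanog had 3.08 and -0.5 (3.58 ± 0.17, adjusted p = 1.97e-11). Pou5f1 stood at 1.92 one day after and at -0.04 at the end (1.96 ± 0.32). Levels of both arms are given for Nanog and Pou5f1. Nanog averaged 209 ± 2.4 CPM at Early 72 h and 211 ± 6.9 at Early 48 h, against 24.5 ± 4.65 at Control 96 h and 299 ± 51.5 at Control 72 h (SD, n = 3 each). Pou5f1 averaged 1332 ± 6.98 CPM at Early 72 h and 1304 ± 4.62 at Early 48 h, against 351 ± 172 and 1342 ± 39.3 in the controls of 96 and 72 h. Both genes stood at similar averages at the 2 ages of the early arm and at lower ones in the controls of 96 h than in those of 72 h.

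**Figure D5:**
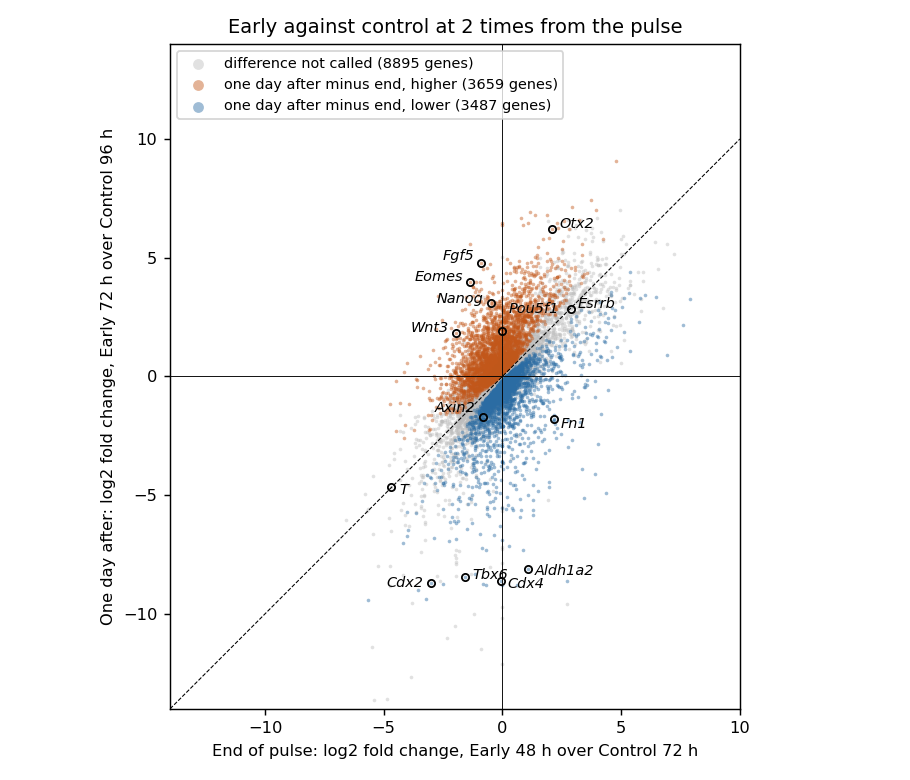
Log2 fold change of early over control at the end of the pulse (Early 48 h over Control 72 h, horizontal) and one day after it (Early 72 h over Control 96 h, vertical) for each tested gene, with the difference between the 2 called higher in orange, lower in blue and not called in grey, the dashed line marking equal gaps. T and Esrrb lie on the dashed line, Fgf5, Eomes and Wnt3 above 0 on the vertical axis and below 0 on the horizontal one, and Aldh1a2 and Cdx4 far below the line near 0 on the horizontal axis.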

How the data were processed

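Sequencing of polyA RNA from wild-type gastruloids gave 18 libraries, and the 3 of Early 72 h and 3 of Control 96 h are compared here. Per the labels' protocols the library kit was stranded and used ligation, and they name a pair of preparation codes without saying which library had which, and preparation is therefore no term in any fit. The submitters' processing notes name cutadapt 4.0, a read trimmer, STAR 2.7.8a, an aligner, Cufflinks 2.2.1, which estimates FPKM, and the build mm10. The deposited table of raw counts holds 55385 genes and was the main measure. The deposited FPKM table, in which the authors scaled by transcript length and library size, holds 55468 genes and served as an alternative and for coordinates, of which 54483 matched GENCODE M21. The deposited count table is named for HTSeq, whose version and strand setting no source used here gives. All sample columns were matched to the labels, and 0 were left unused.

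From the counts, filterByExpr kept 16041 genes, and libraries were scaled by TMM. A quasi-likelihood negative binomial model with 1 coefficient per group was fitted over all 18 libraries (edgeR 4.0.16, limma 3.58.1, R 4.3.3), with 2-sided tests, Benjamini-Hochberg adjustment across the 16041 genes and calls at an adjusted p under 0.05. One contrast was Early 72 h against Control 96 h. The other was its difference from Early 48 h against Control 72 h. The SE is the log2 fold change divided by the square root of F and can be too small near 0 counts. Where a group held 0 counts, its level was set to the floor, 3 counts over the group, and the fold is a lower bound. For 1 to 3 counts the ratio is given with an exact 95% counting interval. Both cover counting error only, since the reads carry no molecular identifiers. The script was tested on simulated data.

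Described by counts and medians, with no test of a list, were 42 gene lists of 507 names written from general knowledge. Members, lists and the rule for naming genes were chosen with earlier results of these data known. Named genes are the 10 largest changes each way with at least 10 CPM in a group and groups that do not overlap, up to 4 members per list of lowest adjusted p, called members that moved against their list, a panel of 28 genes, and up to 5 genes each way from the second contrast. Promoter windows are RefSeq's for GRCm38.p6. Alternatives were DESeq2 size factors, the DESeq2 1.42.0 Wald test, 2 filters on low counts, a 2-fold threshold, only the groups compared, a replicate block, limma-trend on log2(FPKM + 1) with and without a filter and on log2(FPKM + 0.1), and each library left out in turn. One alternative, only the groups compared without control replicate 3 of 96 h, was chosen after seeing the data. Python 3.11.15, pandas 2.3.3, numpy 2.4.6 and matplotlib 3.10.9 were used for the tables and figures.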

Additional observations from a re-analysis of the deposited data

Results flagged for a closer look

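The difference between early and control gastruloids one day after the pulse was tested against the difference at the end of the pulse, and a gene is listed here where that test passed. This held for 3659 genes in the higher and 3487 in the lower direction. Values are log2 differences ± SE, one day after minus end of pulse.

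Among genes of the epiblast and streak, the largest were Fgf5 at 5.66 ± 0.42 and Eomes at 5.36 ± 0.62, and both had a fold change of opposite sign at the 2 times, although at the end of the pulse their libraries overlapped, control replicate 3 of 72 h lying below every library of Early 48 h, and the gap there was not tested. Wnt3 gave 3.82 ± 0.32, being 1.85 one day after and -1.98 at the end of the pulse. Otx2 gave 4.11 ± 0.3, and was higher in the early libraries at both times (6.2 and 2.1). Nanog gave 3.58 ± 0.17 and Pou5f1 1.96 ± 0.32. Outside the lists, Grm6, a metabotropic glutamate receptor, gave 5.32 ± 0.39, Calcr, the calcitonin receptor, 5.28 ± 0.36, and Mmp25, a membrane-bound metalloproteinase, 5.2 ± 0.18. One day after the pulse Mmp25 was at 95.7, 96.8 and 96.4 CPM in the early libraries, against 4.71, 3.42 and 3.93 CPM in the control libraries. In the lower direction, Aldh1a2 gave -9.17 ± 1.65 and Cdx4 -8.56 ± 1.48.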

How the results depend on the processing

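Leaving out 1 library at a time gave 5261 to 5661 genes higher and 5433 to 5776 lower in Early 72 h, and 3320 to 4018 higher and 3069 to 3678 lower for the difference between the gaps. Against a 2-fold threshold, which asks for more than a difference from 0, 1714 genes were higher and 1403 lower, and for the difference between the gaps 842 and 435. On log2(FPKM + 0.1) the difference between the gaps was called lower for 2282 genes, so that 63.1% of its calls were higher, against 51.2% on counts. The cause was not tested. Without the 3 control libraries numbered 3, 5845 genes were higher and 5965 lower in Early 72 h, and 4112 and 3895 for the difference between the gaps. Other settings gave 4493 to 5991 higher and 4996 to 6054 lower in Early 72 h. Of 157 named genes, 23 were not called against the 2-fold threshold, and under the other settings Sox2 and Lin28b lost their calls. None of these 157 changed direction while called, but Hoxa7, which the rule did not name, was lower on counts and called higher on the FPKM scale. DESeq2 gave 7 genes no adjusted p.

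Between Early 72 h and Control 96 h the replicate numbers gave no sign of pairing. Deviations of same-numbered libraries correlated at -0.023, 0.008 and -0.019 over 1000 genes. These correlations cannot show whether numbers pair libraries of different ages within an arm, which was not tested. Control replicate 3 stood apart at each age. With the replicate block over all libraries 5577 genes were higher and 5735 lower, and with only the groups compared 4951 and 4996. For the difference between the gaps the block gave 3726 higher and 3594 lower over all libraries, and 3601 and 3392 with only the groups compared.

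Limits are the 3 libraries per group, of which control replicate 3 stands apart at 96 h and also at 72 and 48 h, the shared change of age and pulse window, and depth. A gene with 0 counts over 3 libraries is not shown to be absent, and its fold is a lower bound.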

Other observations

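Germline genes moved both ways, and genes of the two-cell-like state gave small levels in both groups. Summed over the primordial germ cell list, levels were 84.5, 85.3 and 87.5 CPM in the early libraries. They were 84, 79 and 85.7 CPM in the control libraries. Of 9 primordial germ cell genes 4 were higher and 2 lower in Early 72 h. Dazl, an RNA-binding protein of germ cells, was at 10.4, 9.29 and 11.1 CPM in the early libraries, against 0.406, 0.217 and 0.686 CPM in the control libraries (4.57 ± 0.21, adjusted p = 1.34e-12), and Ddx4, a helicase of the germ line, at 28.2, 28.9 and 28.7 CPM in the early libraries, against 5.04, 4.29 and 6.49 CPM in the control libraries (2.45 ± 0.15). Mael, of the piRNA pathway, was at 24.1, 25.6 and 23.6 CPM in the early libraries, against 0.691, 0.543 and 1.37 CPM in the control libraries (4.86 ± 0.21). The receptor gene Kit and the factor gene Tfap2c were lower (-1.12 ± 0.1 and -1.79 ± 0.25). All 4 tested genes of the two-cell-like state were higher, with a summed level of 7.89, 7.94 and 6.5 CPM in the early libraries, against 0.284, 0.109 and 1.25 CPM in the control libraries, but 3 of them are near-identical Zscan4 copies among which the counting could divide reads. Of 12 immediate early genes 6 were higher and 2 lower, and of 8 heat shock genes 5 were higher (6 without control replicate 3) and 0 lower. Their summed levels were 160.3, 163 and 159.8 CPM in the early libraries, against 109.8, 92.5 and 115 CPM in the control libraries for immediate early genes. For heat shock genes they were 6299, 6417 and 6096 CPM in the early libraries, against 4378, 4515 and 4957 CPM in the control libraries.

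Of 945 long non-coding genes tested, by GENCODE M21 class, 242 were higher and 342 lower, and of 13651 protein-coding genes 4923 were higher and 5005 lower. Higher calls were 41.4% of all calls among the long non-coding genes and 49.6% among the protein-coding ones. Calls were made for 61.8% of long non-coding and 72.7% of protein-coding genes.

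Levels in the early arm a further day on, at 96 h, stood as follows. Tbx6 was at 1.1 ± 0.434 CPM, Msgn1 at 0.125 ± 0.0365 and Hes7 at 0.142 ± 0.171 (SD, n = 3), beside 0.577 ± 0.0685, 0.0165 ± 0.0286 and 0.177 ± 0.0275 CPM at Early 72 h. For Tbx6 and Msgn1 all 3 libraries of Early 96 h were above all 3 of Early 72 h. For Msgn1 the values were 0.166, 0.0947 and 0.116 CPM at Early 96 h, against 0.0496, 0 and 0 CPM at Early 72 h. The 0.0496 CPM was 1 read, so this order rests on a few reads. T was at 554 ± 82.4 CPM and Eomes at 174 ± 25.1, above those of Early 72 h, and Otx2 at 104 ± 6.68. No test was made of these values.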
